A study of Homo sapiens with 3 samples.

Results

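The NRF2 antioxidant target genes were followed through PANC-1 cells left untreated, treated with cantharidin or treated with okadaic acid. They comprised 9 genes, NFE2L2, HMOX1, NQO1, GCLC, GCLM, TXNRD1, SRXN1, GSR and OSGIN1, of 19699 genes named on the arrays. The genes were listed by name, not by their response, and every probe whose transcript accession belonged to a listed gene was taken. This gave 10 probes, with 2 for GSR and 1 for each of the others. The NFE2L2 probe never stood well above background, so 8 of the 9 genes could be compared.

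PANC-1 is an established human pancreatic cancer line. Cantharidin and okadaic acid are both inhibitors of PP2A, a phosphatase that switches many signalling proteins by dephosphorylation, and the design asked which transcripts changed when either inhibitor was added. Treatment lasted 24 h for both agents, and no vehicle was named for the control. Each treated sample was labelled 20 µM, but the protocol text states this dose next to cantharidin alone, so the okadaic acid dose rests on 1 label. Total RNA was labelled with Cy3 and hybridised to 1-colour Agilent arrays, with 1 array per group and 3 arrays in all, so no difference has a replicate check and no p-value was computed.

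NRF2, the protein made from NFE2L2, is a transcription factor that KEAP1 normally holds in the cytoplasm and delivers to a CUL3 ubiquitin ligase for degradation. Oxidants and electrophiles modify KEAP1, NRF2 then accumulates, pairs with a small MAF protein and binds antioxidant response elements near genes for glutathione synthesis, thioredoxin recycling, quinone reduction and haem breakdown. BACH1 competes for the same elements, and much of the control of NRF2 acts on the protein and not on its transcript.

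The promoter windows below show which of the genes carry the core letters of the antioxidant response element close to the start. They come from RefSeq (GRCh38.p14), run 5′ to 3′ on the strand of the gene, and hold 250 bases before and 50 bases after the annotated start. GCLM and TXNRD1 are shown because they hold the core, and SRXN1 and OSGIN1 because they had nearly the same pattern over the arrays. Capitals mark a match to the antioxidant response element core, TGACNNNGC, or to the AP-1 motif, TGANTCA, on either strand. The windows lie at chr1:93909381-93909680 on the minus strand for GCLM, at chr12:104215529-104215828 on the plus strand for TXNRD1, at chr20:653151-653450 on the minus strand for SRXN1 and at chr16:83952990-83953289 on the plus strand for OSGIN1.
GCLM: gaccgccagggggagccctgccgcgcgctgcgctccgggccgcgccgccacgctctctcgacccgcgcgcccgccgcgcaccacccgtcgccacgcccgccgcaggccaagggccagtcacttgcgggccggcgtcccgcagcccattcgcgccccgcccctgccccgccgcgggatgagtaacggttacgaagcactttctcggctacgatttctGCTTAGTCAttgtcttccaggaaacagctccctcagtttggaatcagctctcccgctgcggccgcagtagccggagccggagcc
TXNRD1: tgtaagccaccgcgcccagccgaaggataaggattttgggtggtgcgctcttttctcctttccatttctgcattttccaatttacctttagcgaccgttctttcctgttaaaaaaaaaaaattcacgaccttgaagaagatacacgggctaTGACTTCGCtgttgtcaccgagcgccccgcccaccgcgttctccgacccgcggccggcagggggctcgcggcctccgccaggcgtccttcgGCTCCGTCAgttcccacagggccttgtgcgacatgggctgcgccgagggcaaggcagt
SRXN1: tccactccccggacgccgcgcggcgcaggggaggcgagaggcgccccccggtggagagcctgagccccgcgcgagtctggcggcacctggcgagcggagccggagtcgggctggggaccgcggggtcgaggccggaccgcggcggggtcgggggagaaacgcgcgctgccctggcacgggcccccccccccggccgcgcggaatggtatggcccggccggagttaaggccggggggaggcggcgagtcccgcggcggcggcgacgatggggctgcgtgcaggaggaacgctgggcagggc
OSGIN1: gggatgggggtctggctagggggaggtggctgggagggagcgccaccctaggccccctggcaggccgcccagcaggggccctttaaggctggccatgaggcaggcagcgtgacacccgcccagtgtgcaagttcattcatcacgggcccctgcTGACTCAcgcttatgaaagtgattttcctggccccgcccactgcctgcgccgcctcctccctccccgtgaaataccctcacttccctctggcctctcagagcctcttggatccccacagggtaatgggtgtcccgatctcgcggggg

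The table of windows covered 7 of the 9 genes with 9 windows, since NFE2L2 and TXNRD1 had 2 starts each. HMOX1 and GSR had no entry. The response element core was found in 4687 of all 35116 windows (13.3%) and in 3 of the 9 windows here, which belonged to GCLM and to both starts of TXNRD1. In GCLM it began 34 bases before the start, read on the opposite strand as TGACTAAGC. The TXNRD1 window shown held TGACTTCGC, 99 bases before the start, and TGACGGAGC on the opposite strand, 8 bases before it. The other TXNRD1 window held TGACAAAGC on the opposite strand, 102 bases before its start.

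The AP-1 motif was found in 2707 of all windows (7.71%) and, among these genes, in that of OSGIN1, 97 bases before the start. The windows of NFE2L2, NQO1, GCLC and SRXN1 held neither set of letters, which says nothing of elements farther away. No match of one motif overlapped a match of the other in the windows of these genes. The matches are letters in a window, and binding was not measured.

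For each probe, intensity was divided by the 75th percentile of its array to give a scaled intensity, and differences were taken on the log2 scale. The error given with a difference, its spot SD, is the SD expected from spot noise on the arrays compared. For a gene with 1 spot per array it was taken from replicate spots of the same brightness. For a gene with 10 spots it is the SD of the mean over its own spots, which is smaller than that of 1 spot. The error covers spot noise only, not variation between cultures. A gene was counted as higher or lower at 1.5-fold, the threshold used below. The arrays held 23071 to 25103 probes well above background and no saturated transcript spot. Of 7 epithelial and mesenchymal markers listed for PANC-1 (keratins, VIM, EPCAM and CDH1), all were above background in control and 6 on each treated array, where CDH1 was not. Of 10 markers of blood, vessel, liver and normal pancreas cells, 8 were above background on each array, with a summed scaled intensity of 7.95 in control, 6.68 with cantharidin and 15.3 with okadaic acid. CD14 went from 3.23 in control to 11.8 with okadaic acid, while ALB was below background on every array and PECAM1 on every array by its brightest probe. Their part in the results was not tested. Since each array was scaled to itself, a change in RNA per cell and a change in the number of cells cannot be told apart.

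With cantharidin 4 of the 8 genes were higher past 1.5-fold, GCLM, GSR, SRXN1 and OSGIN1, and 2 were lower, NQO1 and GCLC. Over all genes compared, 27.5% were at least 1.5-fold higher and 34.1% lower. With okadaic acid 3 genes were higher, GCLM, GSR and GCLC, and 1 lower, NQO1, against 28.1% of all genes higher and 28.8% lower. SRXN1 and OSGIN1, which had the largest rises with cantharidin, were within 1.5-fold of control with okadaic acid. The median log2 difference of the 8 genes was 0.82 with cantharidin and 0.26 with okadaic acid, against -0.16 and 0.01 over all genes.

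**Figure D1:**
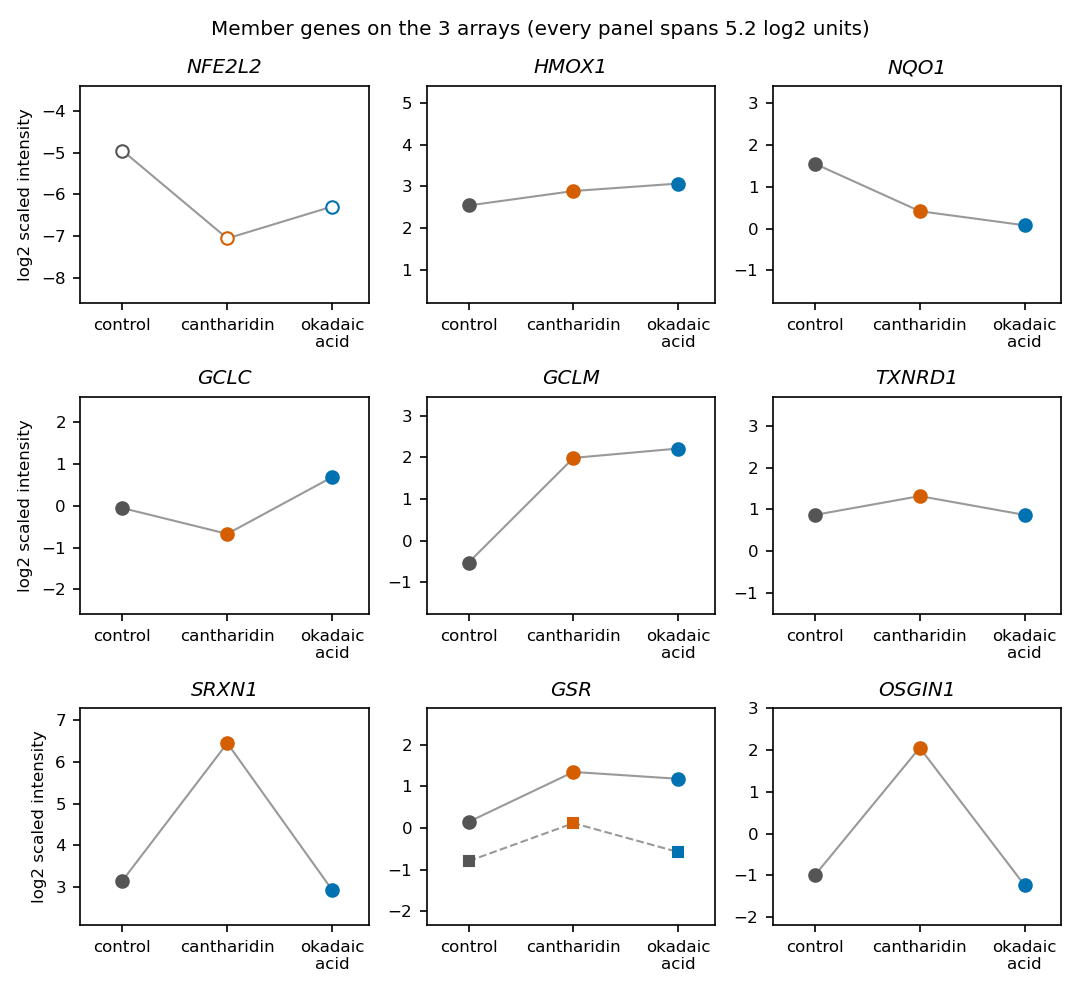
Log2 scaled intensity (vertical axis, intensity over the 75th percentile of the array) of the 9 genes (panels) on each array (horizontal axis), 1 point per array. Open circles mark signals not well above background, squares with a dashed line the second GSR probe, and every panel spans the same range. SRXN1 and OSGIN1 peak on the cantharidin array alone, GCLM is high on both treated arrays, NQO1 is low on both and GCLC goes down with cantharidin and up with okadaic acid.

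The regulator itself could not be followed at the transcript level. The NFE2L2 probe gave an intensity of 25.4 in untreated cells, 5.36 with cantharidin and 11.9 with okadaic acid. The lowest intensity of any probe well above background was 35.0, 21.9 and 58.0 in the same order, so the probe lay under this floor throughout. No fold is given. A dim signal of 1 probe does not show that the transcript was absent.

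GCLM and GCLC encode the modifier and the catalytic subunit of glutamate-cysteine ligase, the rate-limiting enzyme of glutathione synthesis. GCLM had scaled intensities of 0.697 in control, 3.96 with cantharidin and 4.62 with okadaic acid. It was low in untreated cells and high on both treated arrays. The difference from control was 2.51 on the log2 scale (5.68-fold, spot SD 0.14) with cantharidin. With okadaic acid it was 2.73 (6.64-fold, spot SD 0.10). GCLM was thus the gene of the set with the largest rise under okadaic acid, where 593 of the 16166 genes compared rose further.

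GCLC had scaled intensities of 0.964 in control, 0.628 with cantharidin and 1.61 with okadaic acid, so the control lay between the treated arrays. The log2 difference was -0.62 (1.54-fold lower, spot SD 0.13) with cantharidin and 0.74 (1.67-fold higher, spot SD 0.10) with okadaic acid. The fall was within its spot SD of the 1.5-fold line, and it missed the line under 3 other ways of correcting or scaling the arrays, with log2 differences of -0.46 to -0.55. The 2 subunits of the ligase thus moved apart with cantharidin and rose together with okadaic acid.

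GSR, glutathione reductase, returns oxidised glutathione to its reduced form. Its brighter probe had scaled intensities of 1.11 in control, 2.54 with cantharidin and 2.26 with okadaic acid, and was higher on both treated arrays. The log2 differences were 1.20 (2.29-fold, spot SD 0.14) and 1.03 (2.04-fold, spot SD 0.10). The second probe gave 0.578, 1.08 and 0.671 in the same order. It rose by 0.91 on the log2 scale (1.88-fold) with cantharidin, but its difference with okadaic acid was 0.22 (1.16-fold), so the rise with okadaic acid rests on 1 of the 2 probes.

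SRXN1, sulfiredoxin, restores overoxidised peroxiredoxins. Its scaled intensity was 8.88 in control, 87.2 with cantharidin and 7.63 with okadaic acid. The cantharidin array stood far above the others, which were close to each other. The log2 difference from control was 3.30 (9.82-fold, spot SD 0.099) with cantharidin and -0.22 (1.16-fold lower, spot SD 0.087) with okadaic acid. Among all genes, 435 of 16644 rose further with cantharidin.

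TXNRD1, thioredoxin reductase, feeds electrons from NADPH to thioredoxin. It had scaled intensities of 1.83 in control, 2.50 with cantharidin and 1.83 with okadaic acid. The difference with cantharidin was 0.45 on the log2 scale (1.37-fold, spot SD 0.13), short of 1.5-fold, and that with okadaic acid was 0.00 (spot SD 0.096). TXNRD1 thus stayed within 1.5-fold of control under both agents.

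HMOX1 encodes haem oxygenase, which breaks haem down to biliverdin, iron and carbon monoxide. It was the only gene of the set with 10 spots per array. Its spots ranged in scaled intensity from 5.61 to 6.03 in control, from 7.0 to 8.05 with cantharidin, where 9 of the 10 spots were used, and from 7.95 to 8.84 with okadaic acid. The control spots did not overlap with those of either treated array, while the treated arrays overlapped with each other. The log2 difference was 0.35 (1.27-fold, spot SD 0.025) with cantharidin and 0.53 (1.44-fold, spot SD 0.019) with okadaic acid, both well beyond spot noise and below 1.5-fold. These errors are for means over the spots. The SD between spots was 0.036 in control, 0.067 with cantharidin and 0.049 with okadaic acid. With okadaic acid the 1.5-fold line was passed under 3 of 13 alternative treatments of the data, at 0.58 to 0.78, all of which changed the scaling between arrays.

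NQO1 reduces quinones with both electrons at once and is among the best known NRF2 targets. Its scaled intensity was 2.94 in control, 1.34 with cantharidin and 1.06 with okadaic acid, lower on both treated arrays. The log2 difference was -1.14 (2.20-fold lower, spot SD 0.13) with cantharidin and -1.47 (2.78-fold lower, spot SD 0.091) with okadaic acid. NQO1 was the one gene of the set that was lower under both agents, and 1879 of 16166 genes fell further with okadaic acid.

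OSGIN1, an oxidative stress-induced growth inhibitor, had scaled intensities of 0.501 in control, 4.16 with cantharidin and 0.424 with okadaic acid. As for SRXN1, the cantharidin array stood alone. The log2 difference was 3.06 (8.32-fold, spot SD 0.16) with cantharidin and -0.24 (1.18-fold lower, spot SD 0.16) with okadaic acid.

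**Figure D2:**
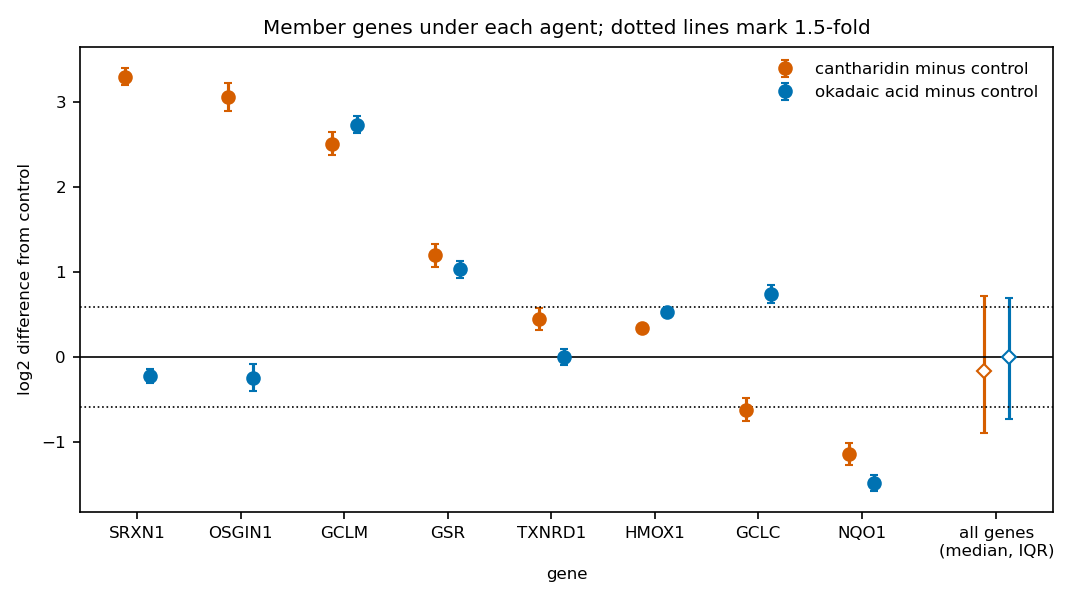
Log2 difference from control (vertical axis) of the 8 genes compared, with cantharidin in orange and okadaic acid in blue; bars are the SD expected from spot noise, and the diamonds at the right give the median and interquartile range of all genes compared. SRXN1 and OSGIN1 lie above 3 with cantharidin and just below 0 with okadaic acid, GCLM lies above 2 with both, and NQO1 is the lowest with both.

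Okadaic acid was next set directly against cantharidin, with the doses taken from the sample labels. SRXN1 was 11.4-fold lower with okadaic acid (log2 difference -3.52, spot SD 0.10) and OSGIN1 9.82-fold lower (-3.30, spot SD 0.17). GCLC was 2.57-fold higher (1.36, spot SD 0.14). These were the 1 gene higher and the 2 genes lower past 1.5-fold of the 8, against 29.5% higher and 22.3% lower among all 16200 genes compared. SRXN1 and OSGIN1 lay at the far low end, with 107 and 124 genes lower. The other 5 genes had log2 differences from -0.45 for TXNRD1 to 0.22 for GCLM. HMOX1 (0.18), NQO1 (-0.34) and GSR (-0.16) were also within 1.5-fold between the agents. With 1 array each, these small differences do not show that the agents acted alike on them.

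**Figure D3:**
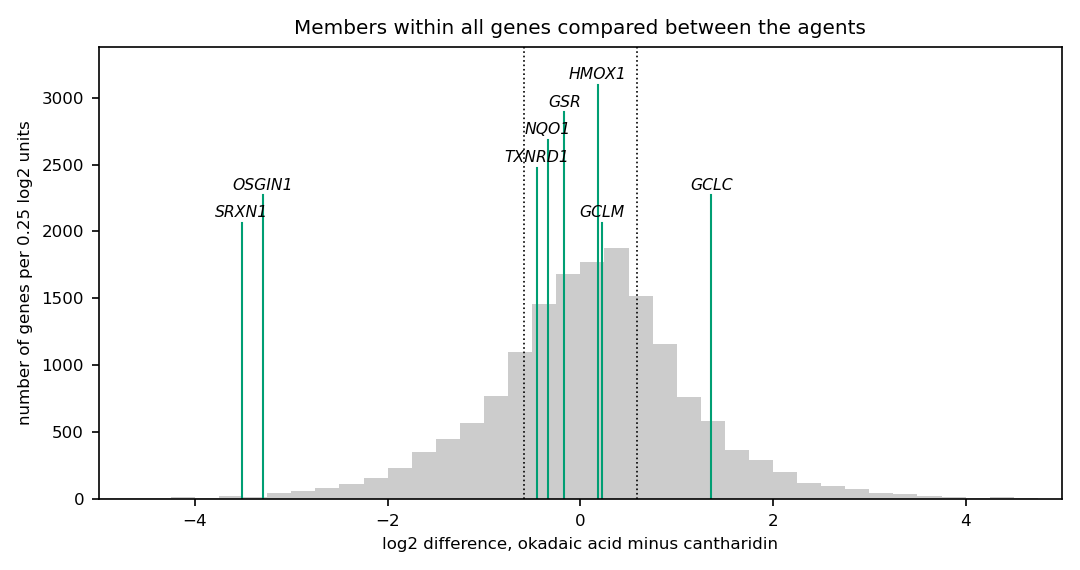
Distribution of log2 differences between okadaic acid and cantharidin (horizontal axis) over all genes compared, as the number of genes per bin (grey), with the 8 genes as green lines whose heights only separate the labels; genes beyond the ends of the axis are not drawn. Dotted lines mark 1.5-fold. SRXN1 and OSGIN1 lie in the far left tail, GCLC lies to the right, and the other 5 genes lie between the dotted lines.

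The pattern of SRXN1 and OSGIN1, high with cantharidin alone, was also counted over the 14222 genes well above background on all arrays. As many as 232 genes rose at least as far as SRXN1 with cantharidin, SRXN1 included, and 15 of them were within 1.5-fold of control with okadaic acid. For OSGIN1 the numbers were 318 and 25. The genes nearest to SRXN1 in their pair of log2 differences from control were LYPD5 (3.33 with cantharidin and -0.15 with okadaic acid), SPMIP6 (3.43 and -0.21) and THOC6 (3.47 and -0.10). Those nearest to NQO1 were CDAN1 (-1.13 and -1.48), VDAC1 (-1.12 and -1.49) and ZFYVE21 (-1.12 and -1.49). Likeness was the Euclidean distance between these pairs of differences, which come from 3 arrays with a shared control, at 0.074 to 0.21 for SRXN1 and 0.013 to 0.023 for NQO1.

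Regulators, partners, relatives and competitors of NRF2 were described from a list of 17 genes. With cantharidin 9 of the 17 were counted as at least 1.5-fold higher (52.9%, against 27.5% of all genes) and 4 lower (23.5%, against 34.1%), with a median log2 difference of 0.95. The 9 include NFE2, which was well above background on the cantharidin array alone. Its rise is known only as at least 1.01-fold. With okadaic acid 5 of the 16 compared were higher (31.2%, against 28.1%) and 2 lower (12.5%, against 28.8%), with a median of 0.02. KEAP1, the adaptor that targets NRF2 for degradation, had scaled intensities of 2.38 in control, 4.60 with cantharidin and 1.83 with okadaic acid. It was higher with cantharidin alone (log2 difference 0.95, 1.94-fold, against -0.38 with okadaic acid), and its spots did not overlap between the arrays, at 2.30 to 2.45, 4.11 to 5.05 and 1.66 to 1.91.

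MAFF, a small MAF partner of NRF2, followed the same order, with 6.16, 16.4 and 4.48. It was 2.67-fold higher with cantharidin (1.42) and had a log2 difference of -0.46 with okadaic acid. SQSTM1, the p62 autophagy receptor that binds KEAP1 and is itself an NRF2 target, had 58.5, 134 and 49.8. It was 2.30-fold higher with cantharidin (1.20), with -0.23 for okadaic acid. KEAP1, MAFF and SQSTM1 had their highest signal on the cantharidin array, as did SRXN1 and OSGIN1, and a link was not tested. Others in the list peaked there too, among them MAFG, NFE2L1, CREBBP and, by its brighter probe, BACH1. The share of all genes with this trait is not given here. In the same list 4 genes were lower with cantharidin.

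The other small MAF genes differed from MAFF. MAFG was higher with both agents (1.23 and 0.62 on the log2 scale, and 1.37 and 0.82 by its second probe). MAFK was 1.73-fold lower with cantharidin (-0.79) and had -0.54 with okadaic acid. The call of MAFG with okadaic acid was lost with median scaling (0.49), and that of MAFK was then made (-0.66). BACH1, the competing repressor, was higher by its brighter probe with both agents (3.13-fold and 1.94-fold), but its second probe, dim on both treated arrays, was at least 2.50-fold lower with cantharidin. The probes of BACH1 thus differed in direction, but they were matched to different transcripts of the gene. That of the brighter probe is coding and that of the second probe is non-coding. In control the second probe was only 1.72 times the lowest intensity well above background, against 13.9 times for the brighter probe.

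CUL3, the scaffold of the ligase, had log2 differences of -0.10 and 0.18. Among the relatives of NRF2, NFE2L1 had 0.57 and -0.15 (past 1.5-fold with cantharidin under 5 alternatives), and NFE2L3 was lower with both, 15.7-fold with cantharidin (-3.97) and 3.75-fold with okadaic acid (-1.91). The largest rise in the list was that of the coactivator CREBBP with cantharidin (2.40, 5.26-fold) and that of BTRC, an F-box protein of another ligase that degrades NRF2, with okadaic acid (2.32, 4.98-fold). In control BTRC was only 1.34 times the lowest intensity well above background, and CREBBP 2.89 times. The call for BTRC with cantharidin (1.37) was lost with another background correction, at 0.46. Its log2 difference with okadaic acid ranged from 1.01 to 2.75 over the alternatives, and that of CREBBP with cantharidin from 1.58 to 2.79.

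Further known NRF2 targets were found on both sides of control. Of 33 listed, 9 of 31 compared were higher (29.0%, against 27.5% of all genes) and 13 lower (41.9%, against 34.1%) with cantharidin. The 9 include AKR1C1, AKR1C3 and CYP4F11, whose probes used were not well above background in control. Their rises were at least 3.70-fold, 1.69-fold and 4.27-fold. With okadaic acid 6 of 29 were higher (20.7%, against 28.1%) and 12 lower (41.4%, against 28.8%), with medians of -0.36 and -0.35 under the agents. The 6 include CYP4F11, whose rise was at least 1.86-fold. SLC7A11, the cystine importer that supplies glutathione synthesis, had scaled intensities of 0.305 in control, 7.41 with cantharidin and 2.05 with okadaic acid. It was 24.3-fold higher with cantharidin (4.60) and 6.71-fold higher with okadaic acid (2.75), the largest rise in the list under each. Over the alternatives the log2 difference with cantharidin ranged from 4.01 to 4.91.

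AKR1B10, an aldo-keto reductase, was higher with both agents (2.24 and 2.43, and 3.91 and 3.61 by its second probe), as was the export pump ABCC2 (5.47-fold and 2.83-fold). In control the second AKR1B10 probe was only 1.05 times the lowest intensity well above background. The first AKR1B10 probe was at 2.71 times and ABCC2 at 1.93 times this floor. AKR1C1 was at least 3.70-fold higher with cantharidin and below background on the control and okadaic acid arrays by its brighter probe. The second AKR1C1 probe, near the floor in control, rose by only 1.68-fold with cantharidin (0.75, spot SD 0.40). Over the alternatives, the log2 difference with cantharidin ranged from 1.57 to 3.08 for AKR1B10, from 1.51 to 2.97 for ABCC2 and from 1.07 to 3.15 for AKR1C1. With okadaic acid it ranged from 1.71 to 3.02 for AKR1B10 and from 0.79 to 1.76 for ABCC2. The enzymes that make NADPH differed among themselves. PGD was lower with cantharidin (-1.04, against -0.35) and ME1 lower with okadaic acid (-1.81, or -2.35 to -1.20 over the alternatives, against 0.30). IDH1, chosen after its values were seen, was 1.83-fold higher with cantharidin (0.87, against -0.22).

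The export pump ABCC1 was lower with both agents (6.54-fold and 7.71-fold), and ABCC3 was 9.21-fold lower with okadaic acid (-3.20), against -0.49 with cantharidin. The second ABCC3 probe gave -3.35 with okadaic acid and -1.01 with cantharidin. ABCC3 passed 1.5-fold lower with cantharidin under 2 alternatives. Thioredoxin, peroxiredoxin 1 and the ferritin chains, all bright on the arrays, stayed within 1.5-fold of control with either agent. TXN had log2 differences of -0.35 and 0.14, PRDX1 -0.33 and 0.41, FTH1 0.07 and -0.32, and FTL 0.56 and 0.30. PRDX1 passed 1.5-fold with okadaic acid under 3 alternatives and FTL with cantharidin under 2.

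Of 29 other glutathione genes compared, 6 were higher (20.7%, against 27.5% of all genes) and 14 lower (48.3%, against 34.1%) with cantharidin. With okadaic acid 5 were higher (17.2%, against 28.1%) and 14 lower (48.3%, against 28.8%), and the median was -0.57 under each. The 14 lower with okadaic acid include GSTM2, not well above background there, with a fall of at least 1.84-fold. CHAC1, which degrades glutathione and is known as a target of the ATF4 stress response, had scaled intensities of 2.29 in control, 89.0 with cantharidin and 83.1 with okadaic acid. It was 39.0-fold and 36.4-fold higher, the largest rise in this list under both, but 11.9-fold and 8.34-fold by its second probe. GSS, glutathione synthetase, was 1.63-fold lower with cantharidin (-0.71) and 7.05-fold lower with okadaic acid (-2.82). GPX8, a peroxidase of the endoplasmic reticulum, was 8.22-fold lower with cantharidin (-3.04). With okadaic acid its probes disagreed, at -1.16 and 0.02. So with okadaic acid the ligase subunits GCLM and GCLC were higher while the next enzyme of the same pathway was lower.

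In the thioredoxin, peroxide and superoxide list 1 gene of 19 was higher (5.26%, against 27.5% of all genes) and 9 lower (47.4%, against 34.1%) with cantharidin. With okadaic acid 4 of 18 were higher (22.2%, against 28.1%) and 11 lower (61.1%, against 28.8%), with medians of -0.58 and -0.73 under the agents. The 11 include TXNRD2, TXNRD3, SOD3 and SESN1, which were not well above background with okadaic acid. Their falls were at least 1.88-fold, 5.56-fold, 1.23-fold and 2.16-fold, so SOD3 was not shown to pass 1.5-fold. With cantharidin SOD3 was also dim, and its fall was at least 2.49-fold. SESN2, sestrin 2, was higher with both (21.6-fold and 5.40-fold). TXNIP, the inhibitor of thioredoxin, was lower with both, 96.5-fold (-6.59) and 14.4-fold (-3.85). With cantharidin its signal was 1.78 times the lowest well above background, and the log2 difference ranged from -7.04 to -4.90 over the alternatives. SOD2, the mitochondrial superoxide dismutase, had 10.5 in control, 15.3 with cantharidin and 107 with okadaic acid, so that it was 10.3-fold higher with okadaic acid. With cantharidin the ratio to control was 1.46, and it passed 1.5-fold under 2 alternatives.

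The haem and iron list had 3 genes higher and 5 lower of 10 under each agent, with medians of -0.36 and -0.76. The share higher, 30%, was near that of all genes, 27.5% with cantharidin and 28.1% with okadaic acid. The share lower, 50%, was above the 34.1% and 28.8% of all genes. HMOX2, the constitutive haem oxygenase, was higher with both (4.54-fold and 3.07-fold). FLVCR1, a haem exporter, was also higher with both (2.42-fold and 5.15-fold). CPOX, an enzyme of haem synthesis, was lower with both, 10.7-fold with cantharidin and 2.71-fold with okadaic acid.

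**Figure D4:**
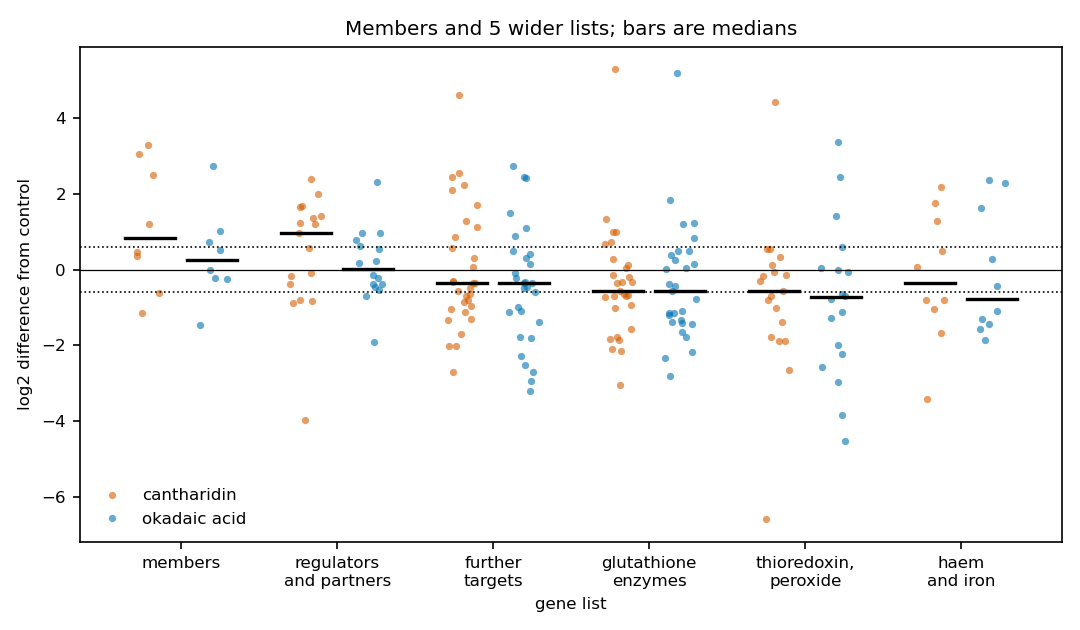
Log2 difference from control (vertical axis) of each gene compared in the set of NRF2 targets and in 5 wider lists (horizontal axis), with cantharidin in orange and okadaic acid in blue; black bars are medians and dotted lines 1.5-fold. The median lies above 0 with cantharidin for the target set and the regulators, and below 0 with both agents for the other lists, each of which spans both directions.

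Over the 5 wider lists together, 28 of 106 genes were higher (26.4%) and 45 lower (42.5%) with cantharidin, and 23 of 102 were higher (22.5%) and 44 lower (43.1%) with okadaic acid. Over all genes these shares were 27.5% and 34.1% with cantharidin, and 28.1% and 28.8% with okadaic acid. Of the 28 genes higher with cantharidin, 24 were well above background on all arrays. For the 45 lower with cantharidin this number was 42, and for the 44 lower with okadaic acid it was 39. Of the 113 genes listed, 108 had a matched probe. Both comparisons used the same control array.

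Each difference of the 8 genes was recomputed under 13 alternative ways of treating the data. Of the 24 values, 8 genes in 3 comparisons, 18 kept their call under all of them. SRXN1 with cantharidin ranged from 3.16 to 3.37, OSGIN1 from 2.83 to 3.21, GCLM from 2.32 to 2.58 and NQO1 from -1.27 to -1.06. With okadaic acid GCLM ranged from 2.54 to 2.99 and NQO1 from -1.60 to -1.22. With okadaic acid SRXN1 ranged from -0.34 to 0.04 and OSGIN1 from -0.36 to 0.02, within 1.5-fold of control under each of the 13, and both were above 0 without scaling.

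**Figure D5:**
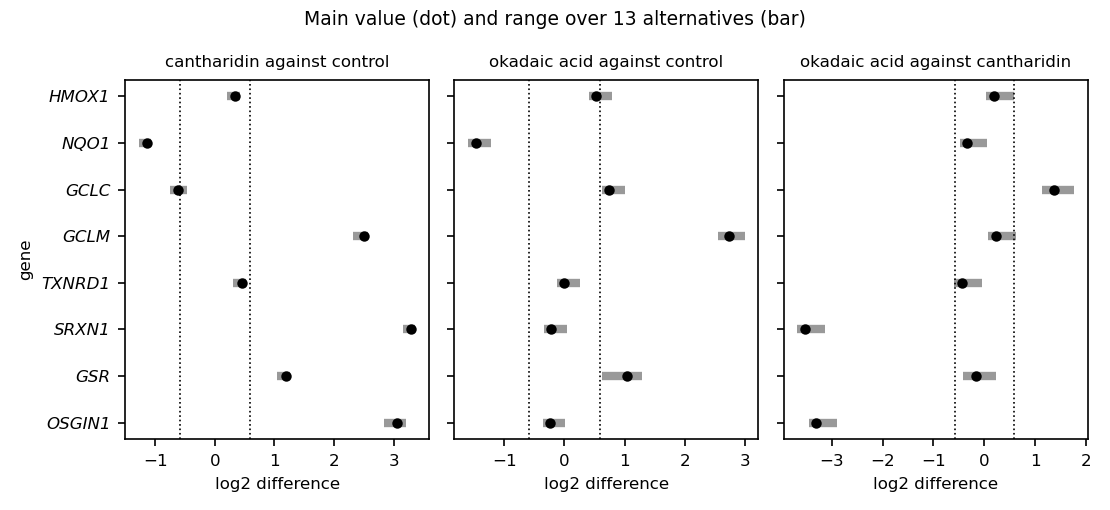
Log2 difference (horizontal axis) of the 8 genes (vertical axis) in the 3 comparisons, with the value as reported as a dot and the range over 13 alternative ways of treating the data as a grey bar; dotted lines mark 1.5-fold. The bars of GCLC with cantharidin, of HMOX1 with okadaic acid and of GCLM and TXNRD1 between the agents reach or cross a dotted line, and those of SRXN1, OSGIN1 and NQO1 do not in any panel.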

How the data were processed

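The authors deposited the scanner output of 3 Agilent 1-colour arrays (control, cantharidin and okadaic acid), from Feature Extraction 11.0.1.1. The intensity used was, per the file headers, already background-subtracted and spatially detrended within each array, with probe annotation on hg19. Other deposited columns, of no unit, flagged outliers and probes above background. A further table of the authors held deposited normalized log2 values, whose method was not given in the sources used here; 30845 rows were matched and used as an alternative.

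Spots with an outlier flag were dropped, log2 intensity was averaged per probe (34041 of 34127 probes) and the 75th percentile of each array was subtracted, at intensities of 784, 713 and 936. Probes were named through RefSeq accessions (25705 probes). The probe with the highest mean signal stood for a gene. A gene entered a comparison if either array had it well above background, and was called from the measured difference at 1.5-fold; a fold against a dim signal is "at least", set against the lowest intensity well above background on that array. Spot noise came from probes with 10 spots, in 5 bins of brightness, with single-spot probes given the SD of their bin. Probes with 10 spots were given their own spot SD over the square root of the number of spots used. The number of arrays limits the precision, and all arrays shared 1 slide and 1 scan. The genes and lists were chosen with earlier results of these data known. Named genes were the set itself, chosen regulators and targets, the extremes of each list and the 3 genes nearest to SRXN1 and NQO1; some genes that this rule names are not reported here. AKR1C2, TRIM16L, GGT1, GSTA1 and PRDX2 had no matched probe. The 13 alternatives covered background correction (normexp with an offset of 50, on median spot intensity), scaling, filters, probes, 16 blocks of the array and a 2-fold threshold. The counting was tested on simulated data. Python 3.11.15, numpy 2.4.6, pandas 2.3.3, matplotlib 3.10.9, R 4.3.3 and limma 3.58.1 were used.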

Additional observations from a re-analysis of the deposited data

How the results depend on the processing

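The count of 2 target genes lower with cantharidin became 1 with normexp, with the 75th percentile taken over detected probes alone, with centring within blocks and at 2-fold, in each case through GCLC. Without the filter on dim probes NFE2L2 entered, so that 3 genes were lower with cantharidin in place of 2, 2 were lower with okadaic acid in place of 1, and 2 higher with okadaic acid than with cantharidin in place of 1; without scaling that count was also 2, through GCLM. The count of 45 genes of the wider lists lower with cantharidin became 27 at 2-fold.

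The median log2 difference of the target genes, 0.82 with cantharidin, was 0.69 without scaling and 0.45 without the filter. With okadaic acid, 0.26 became 0.14 with median scaling, 0.52 without scaling and 0.00078 without the filter. For okadaic acid against cantharidin, -0.25 became -0.40 with median scaling and 0.14 without scaling, where the median of all genes moved from 0.13 to 0.52. The cause was not tested beyond these constructions. For other values, 50 of 67 differences of named genes in the wider lists kept their call. No call reversed. No paired analysis was possible because each group had 1 array. Genes near background, NFE2L2 and AKR1C1 among them, are limited by signal over background.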
